A study of Mus musculus with 6 samples.

Results

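The 10 genes described here belong to the mitogen-activated protein kinase (MAPK) feedback system: Spry1, Spry2, Spred1, Spred2, Dusp1, Dusp2, Dusp4, Dusp5, Dusp6 and Dusp10. These 10 of the 18046 genes listed in each library were selected by gene symbol from the dual-specificity phosphatase (DUSP), Sprouty and SPRED families, with the differences between LPC and vehicle in these same libraries already known. The members' differences are therefore a description and were given no test of their own. The 6 libraries hold RNA from CD4+ T cells of C57BL/6 mouse spleen (mice of 3 weeks in the labels), sorted or enriched as naive cells by a method the labels leave unnamed. All cells were stimulated through CD3 and CD28 for 3 days in a Th1-polarizing culture, with a vehicle (n = 3) or with LPC at 20 µM (n = 3). Neither the chemical name behind LPC nor the vehicle is spelled out in the labels, and no group without stimulation was analysed here. Whether replicate libraries stem from different mice or culture wells is unstated, and p-values therefore measure a spread that may be technical.

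When a T cell receptor is engaged, Ras and the kinases RAF, MEK and ERK are switched on in turn, and parallel kinases switch on JNK and p38. ERK, JNK and p38 are active only while a threonine and a neighbouring tyrosine are phosphorylated, and DUSP enzymes remove both phosphates. Many DUSP, Sprouty and SPRED genes are themselves transcribed in response to ERK signalling, which makes them a negative feedback loop, and their mRNA levels are often read alongside other immediate early genes in stimulated lymphocytes.

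Promoter sequence is shown for 4 members because 3 of them hold a motif among those searched, and Spry1 has the largest difference between the groups. Each line gives the 250 bases before the annotated transcription start from RefSeq (GRCm38.p6), 5′ to 3′ on the gene's own strand, with motif matches in capitals. Spry1 is at chr3:37639697-37639946 (plus strand), Dusp1 at chr17:26508473-26508722 (minus strand), Dusp2 at chr2:127335909-127336158 (plus strand) and Dusp5 at chr19:53528895-53529144 (plus strand).
Spry1: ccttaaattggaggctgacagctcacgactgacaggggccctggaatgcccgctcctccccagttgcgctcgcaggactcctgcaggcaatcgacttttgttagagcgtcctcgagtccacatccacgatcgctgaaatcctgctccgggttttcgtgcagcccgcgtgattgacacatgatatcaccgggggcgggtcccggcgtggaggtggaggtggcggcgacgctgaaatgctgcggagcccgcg
Dusp1: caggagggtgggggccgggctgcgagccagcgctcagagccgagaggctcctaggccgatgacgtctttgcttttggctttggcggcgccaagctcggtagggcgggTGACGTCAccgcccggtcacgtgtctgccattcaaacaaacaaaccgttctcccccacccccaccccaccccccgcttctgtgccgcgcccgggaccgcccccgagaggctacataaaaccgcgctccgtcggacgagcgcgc
Dusp2: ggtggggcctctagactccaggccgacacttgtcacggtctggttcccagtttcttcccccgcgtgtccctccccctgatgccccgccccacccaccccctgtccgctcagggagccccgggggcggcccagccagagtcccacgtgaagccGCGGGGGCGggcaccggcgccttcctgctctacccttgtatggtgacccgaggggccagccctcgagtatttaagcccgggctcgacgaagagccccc
Dusp5: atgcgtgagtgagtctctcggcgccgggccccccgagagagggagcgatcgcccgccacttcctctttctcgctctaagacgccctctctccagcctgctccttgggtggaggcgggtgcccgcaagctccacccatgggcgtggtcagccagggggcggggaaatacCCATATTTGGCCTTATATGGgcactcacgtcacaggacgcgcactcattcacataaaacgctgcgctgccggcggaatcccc

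Windows of 300 bases, from 250 before to 50 after the start, were found for 9 of the 10 members (Dusp4 had no entry). They were searched on both strands for the cyclic AMP response element (CRE, TGACGTCA), the AP-1 site (TGANTCA), the EGR site (GCGNGGGCG) and the CArG box of serum response factor. Dusp1 held a CRE at positions -143 to -136 from its start, and 1.79% of all 32851 windows hold one. Dusp2 held an EGR site at positions -98 to -90 (5.55% of all windows). Dusp5 held a pair of CArG boxes that follow each other directly, at positions -82 to -73 and -72 to -63 (1.63% of all windows hold at least 1). None of the 9 windows held the AP-1 letters (7.81% of all windows), and the Spry1, Spry2, Spred1, Spred2, Dusp6 and Dusp10 windows matched none of the 4 motifs. The 9 windows had 57.0% to 72.3% G and C, against a median of 52.7% and an upper quartile of 61.7% over all windows. A match describes these letters and does not show that a factor binds there.

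The members differ widely in the length of genome they span. Dusp2 spans 2219 bases, Dusp1 2882, Dusp6 4259, Spry1 4653 and Spry2 4873, whereas Dusp4 spans 12285, Dusp5 12665, Dusp10 41256, Spred1 61209 and Spred2 99585. Each of Dusp1, Dusp2, Dusp4, Dusp5 and Dusp10 has 4 exons in its transcript with the longest coding sequence, Dusp6 has 3, and both SPRED genes have 7. Dusp5 shares 547 exon bases with an antisense RNA gene, and Spry1 shares 710 with a locus of unresolved type, both on the opposite strand. No source states that reads were assigned by strand, so reads of such pairs cannot be told apart.

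Expression was given as FPKM, fragments scaled to exon length and to the mapped reads of the library, a scale per length on which levels of different genes can be set side by side. With vehicle the 10 members covered a wide range, from Dusp2 at 145 ± 15.2 FPKM (SD, n = 3) to Spry2 at 1.32 ± 0.0493 FPKM, which exceeded 3.1% of tested genes. All 10 passed the filter of 1 FPKM or more in at least 3 libraries. Dusp2, Dusp4 and Dusp5 together supplied 77.5 ± 0.965% of the members' summed FPKM with vehicle and 78.0 ± 1.38% with LPC. The vehicle order was Dusp2, Dusp4, Dusp5, Spry1, Spred2, Dusp1, Dusp6, Spred1, Dusp10 and Spry2, and no neighbours in this order overlapped over the 3 libraries. With LPC the order differed at 1 place, where Dusp6 stood above Dusp1. In that group the ranges of Dusp4 and Dusp5, Spred2 and Dusp6, Dusp6 and Dusp1, and Spred1 and Dusp10 overlapped. Within every LPC library, Spred2 still exceeded Dusp6, Dusp6 exceeded Dusp1 and Spred1 exceeded Dusp10. Dusp4 stood under Dusp5 in LPC replicate 1 and above it in LPC replicates 2 and 3. The sum over all 10 members was 433 to 457 FPKM with vehicle and 347 to 388 FPKM with LPC, ranges that did not overlap.

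**Figure D1:**
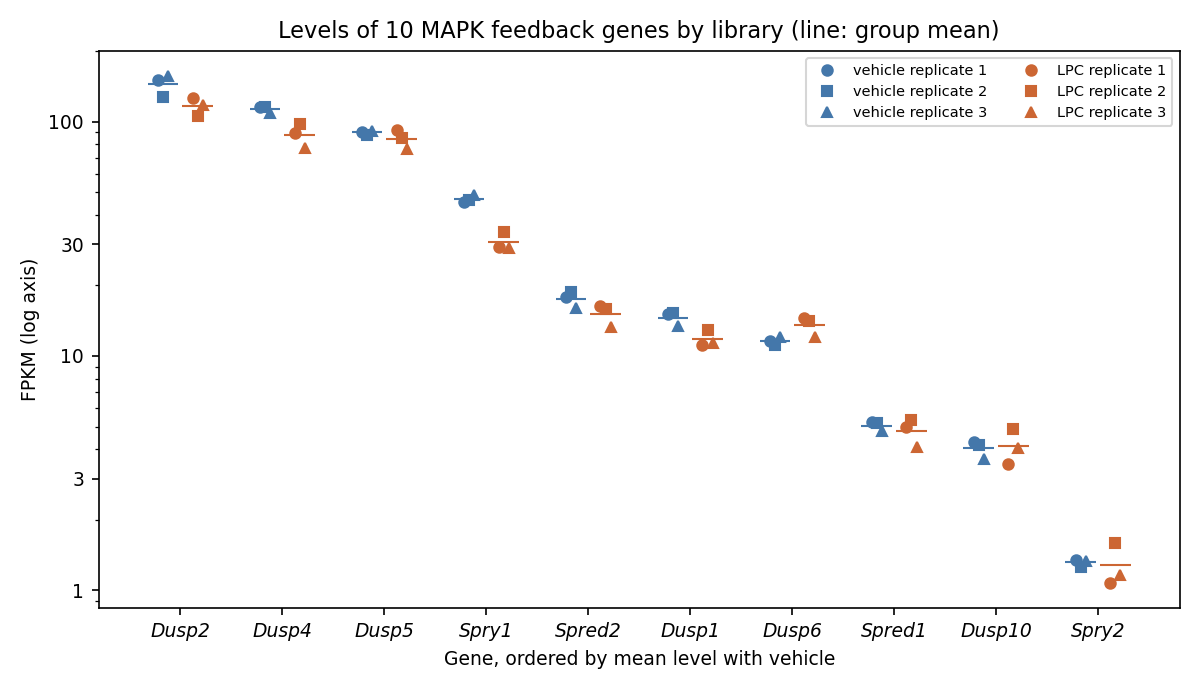
FPKM (log axis) of each of the 10 members in the 3 vehicle libraries (blue) and the 3 LPC libraries (orange), with a line at each group mean. Spry1, Dusp4, Dusp2 and Dusp1 lie lower in all LPC libraries than in any vehicle library, and Dusp6 lies higher by a narrow margin.

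The labelled cell type was checked against marker genes. The 6 T cell markers summed to 1047 to 1106 FPKM with vehicle and 998 to 1079 with LPC, with all 6 at 1 FPKM or more. The 5 B cell markers summed to 1.01 to 1.05 and 0.52 to 0.89 FPKM, the 8 myeloid markers to 3.55 to 5.58 and 3.34 to 5.06, and the 3 erythroid markers to 0.1 to 0.18 and 0.18 to 0.54. Among these, Cd68 alone reached 1 FPKM. The 5 CD8 and natural killer cell markers summed to 13.8 to 15.3 FPKM with vehicle and 12.4 to 13.2 with LPC. Of these 5, 2 (Cd8b1 and Klrd1) were at 1 FPKM or more in some library, and Ncr1 was at 0 throughout. Cd4 itself stood at 197 ± 10.2 FPKM with vehicle and 164 ± 17.5 FPKM with LPC, ranges that did not overlap, and missed the threshold given below (log2 change -0.27). The part of these shifts in the members' differences was not tested. The Th1 factor gene Tbx21 was at 101 ± 8.60 and 111 ± 7.41 FPKM and the Th1 cytokine gene Ifng at 1223 ± 89.1 and 1165 ± 43.9 FPKM, both with overlapping groups. LPC replicate 3 stood apart, with the highest FPKM sum (641026, against 556561 to 588274) and 17.9% of genes at 0 (against 19.4% to 20.2%). In that library 9 of 10 members lay under the LPC mean, and their median distance from it was -0.11 (log2), against -0.05 for all tested genes. LPC replicate 2 lay as far to the other side. There 1 of 10 members was under the LPC mean, with a median distance of 0.13, against 0.05 for all tested genes. Depth is not stated, and an estimate from the steps between low values, 19.25 to 19.5 M reads in each library, puts about 44.0 to 64.3 reads behind a value of Spry2 and 3283 or more behind one of Dusp2.

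Differences between LPC and vehicle were fitted with limma on log2(FPKM + 1) over 10138 genes, and a gene was called changed at a Benjamini-Hochberg adjusted p under 0.05 over all of them. Spry1 and Dusp4, 2 of the 10 members, were past this threshold on the lower side and 0 on the higher side, beside 7.91% of all tested genes called lower and 5.82% called higher. Groups did not overlap for 4 members that were lower with LPC (Spry1, Dusp4, Dusp2 and Dusp1) and 1 that was higher (Dusp6), beside 20.7% and 13.7% of all tested genes. The lower count was 1 when any of vehicle replicates 1 and 2 and LPC replicate 1 was dropped, and 3 when LPC replicate 2 was. Over all genes 42.4% of calls were higher, and 53.1% with libraries centred on their median. Since this contrast was known when the members were chosen, these counts are descriptive. The median log2 change of the 10 members was -0.15, and that of all tested genes was -0.04. In bulk RNA, fewer cells that express a gene and less RNA per cell cannot be told apart.

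Sprouty proteins sit at the membrane and block the route from receptors through Ras to RAF, and Spry1 is induced in activated T cells. Spry1 (gene ID 24063, chromosome 3, 37639947 to 37644599) was listed at 45.37, 46.48 and 48.58 FPKM in vehicle replicates 1 to 3 and at 29.29, 33.65 and 28.97 FPKM in LPC replicates 1 to 3. All LPC libraries were well under the lowest vehicle library, and the gap between the groups exceeded the range within either. The group means were 46.8 ± 1.63 and 30.6 ± 2.61 FPKM, a ratio of 0.654, with a log2 change of -0.60 (SE 0.09). This was the largest difference among the 10 members. Leaving out any 1 library gave -0.67 to -0.56, and Spry1 stayed past the threshold in all 13 alternative analyses. Spry2 was far lower in level, at 1.35, 1.26 and 1.34 FPKM with vehicle and 1.08, 1.60 and 1.16 FPKM with LPC. Its groups overlapped, and LPC replicate 2 was the highest of all 6 libraries. The log2 change of Spry2 was -0.03, with a 95% interval of -0.26 to 0.20. The Spry1 level was 35.6 ± 1.74 times that of Spry2 with vehicle and 24.4 ± 3.09 times with LPC.

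SPRED proteins bind membranes and bring the Ras inactivator neurofibromin to Ras. Spred1 was listed at 5.22, 5.16 and 4.77 FPKM with vehicle and 4.99, 5.34 and 4.07 FPKM with LPC. The groups overlapped, with LPC replicate 2 the highest library of all 6 and LPC replicate 3 the lowest. Its log2 change was -0.07 (95% interval -0.30 to 0.16). Spred2 was listed at 17.82, 18.75 and 16.07 FPKM with vehicle and 16.36, 15.82 and 13.32 FPKM with LPC. LPC replicate 1 lay above vehicle replicate 3, so the Spred2 groups overlapped as well. Its log2 change was -0.20 (95% interval -0.42 to 0.02), and it fell short of the threshold in all 13 alternatives.

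Among the inducible nuclear phosphatases, Dusp4 (gene ID 319520, chromosome 8, 34807610 to 34819894) was the second most abundant member. Dusp4 was listed at 115.77, 115.42 and 108.70 FPKM with vehicle and 89.25, 97.21 and 77.47 FPKM with LPC. The groups did not overlap, and the LPC libraries were more spread, with SDs of 9.93 against 3.98 FPKM. The means of 113 and 88.0 FPKM gave a ratio of 0.777 and a log2 change of -0.37 (SE 0.10). Dusp4 lost its call when vehicle replicate 1 (log2 change -0.35), vehicle replicate 2 (-0.35) or LPC replicate 1 (-0.38) was left out, and with no filter on low values.

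Dusp2, whose product is a phosphatase of activated lymphocytes, lies on chromosome 2 from 127336159 to 127338377. It was listed at 149.93, 127.47 and 156.38 FPKM with vehicle and 125.67, 105.46 and 118.23 FPKM with LPC. The groups were separated by 1 narrow gap, between vehicle replicate 2 and LPC replicate 1. Replicate 2 was the lowest Dusp2 library in both groups. The means of 145 ± 15.2 and 116 ± 10.2 FPKM gave a log2 change of -0.31 (SE 0.10), which did not pass the threshold. Dusp1, which encodes a phosphatase acting on JNK, p38 and ERK, was listed at 15.11, 15.27 and 13.37 FPKM with vehicle and 11.19, 12.93 and 11.37 FPKM with LPC. Its groups did not overlap, the nearest libraries being vehicle replicate 3 and LPC replicate 2. The Dusp1 log2 change of -0.28 (SE 0.10) did not pass either. It passed without LPC replicate 2 (-0.34), and both Dusp1 and Dusp2 passed once trends with GC share and transcript length were removed (-0.26 and -0.36). Quantile normalization also took Dusp2 past it (-0.37).

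Dusp5 encodes a nuclear phosphatase specific for ERK. It was listed at 90.59, 87.83 and 91.52 FPKM with vehicle and 92.38, 84.76 and 76.33 FPKM with LPC. LPC replicate 1 was the highest library of all and LPC replicate 3 the lowest, so the groups overlapped. Its log2 change was -0.09 (95% interval -0.29 to 0.10). Within a library, where scaling cancels, the ratio of Dusp4 to Dusp5 was 1.28, 1.31 and 1.19 with vehicle and 0.966, 1.15 and 1.01 with LPC, ranges that did not overlap. The ratio of Dusp2 to Dusp5 was 1.66, 1.45 and 1.71 with vehicle and 1.36, 1.24 and 1.55 with LPC, ranges that overlapped. All ratios given here were chosen after the values were seen.

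Dusp6, which encodes the cytoplasmic phosphatase of ERK, was the single member with a higher LPC mean and groups that did not overlap. It was listed at 11.57, 11.16 and 12.01 FPKM with vehicle and 14.45, 14.09 and 12.02 FPKM with LPC. LPC replicate 3 exceeded vehicle replicate 3 by 1 unit of the rounding, so the separation rests on the other LPC libraries. The means of 11.6 ± 0.425 and 13.5 ± 1.31 FPKM gave a log2 change of 0.20 (95% interval -0.01 to 0.41), which did not pass. Without LPC replicate 3 it was 0.28 and still did not pass, while it did pass once GC and length trends were taken out (0.28). The ratio of Dusp6 to Spry1 within a library was 0.255, 0.240 and 0.247 with vehicle and 0.493, 0.419 and 0.415 with LPC. Dusp6 to Dusp1 ratios were 0.731 to 0.898 with vehicle and 1.06 to 1.29 with LPC. For neither ratio did the groups overlap, which already follows from the separate groups of Dusp6, Spry1 and Dusp1 and adds no further result.

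Dusp10, which encodes a phosphatase of JNK and p38, was listed at 4.28, 4.17 and 3.65 FPKM with vehicle and 3.46, 4.86 and 4.04 FPKM with LPC. The LPC group held both the lowest and the highest library. Its log2 change was 0.02 (95% interval -0.23 to 0.26).

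**Figure D2:**
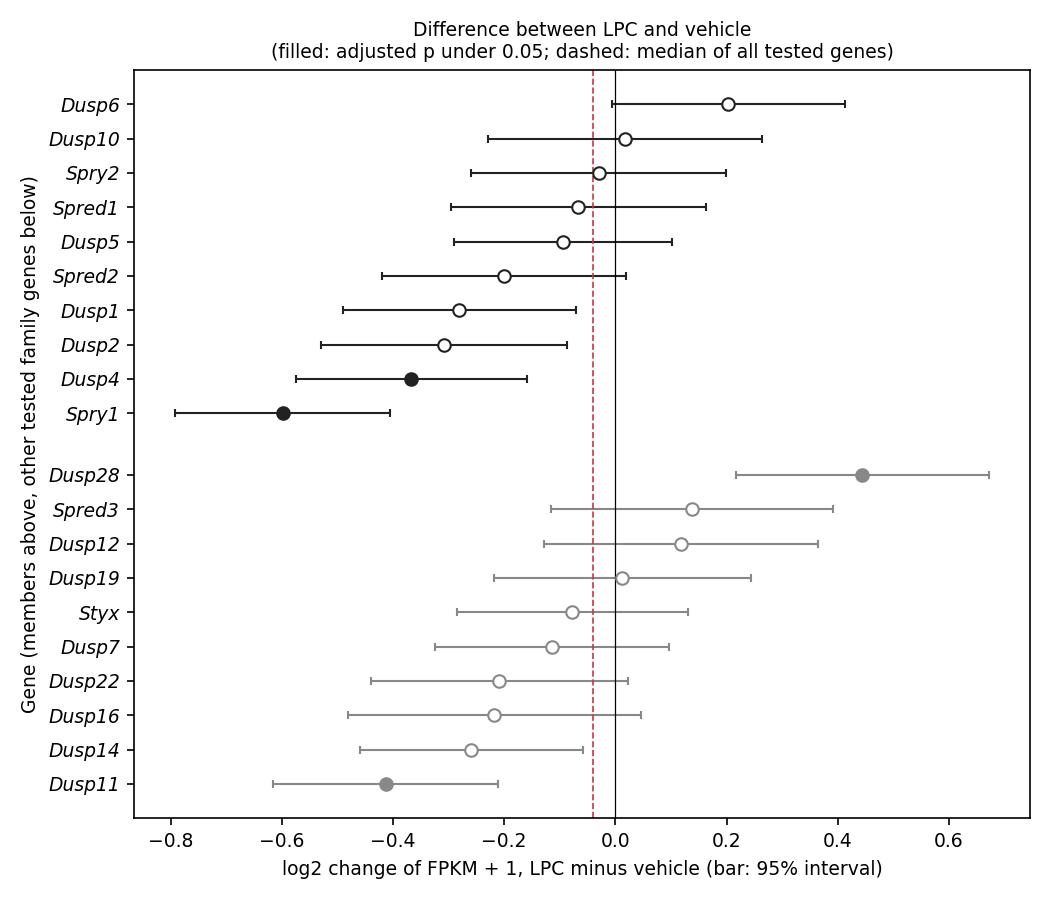
Log2 change of FPKM + 1, LPC minus vehicle, with its 95% interval for the 10 members (black) and 10 further tested DUSP, SPRED and related genes (grey). Filled points are past the adjusted threshold: Spry1 (-0.60) and Dusp4 (-0.37) among the members, Dusp11 (-0.41) and Dusp28 (0.44) among the others, and the dashed line is the median of all tested genes (-0.04).

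The rest of the family was then examined. Of 21 further DUSP, Sprouty and SPRED genes in the files 10 were tested, of which 1 rose, 1 fell and 8 did not pass, beside 5.82% and 7.91% of all tested genes, with a median log2 change of -0.10. Dusp11, an atypical family member that acts on RNA 5′ phosphates, fell from 36.2 ± 1.67 to 27.0 ± 2.78 FPKM (log2 change -0.41, SE 0.09, limma adjusted p = 0.013). Dusp28, another atypical member, rose from 4.74 ± 0.225 to 6.84 ± 0.930 FPKM (0.44, SE 0.11, adjusted p = 0.0158). Dusp11 lost its call when vehicle replicate 1 (adjusted p = 0.0552), 2 (0.0657) or LPC replicate 1 (0.0537) was left out, and Dusp28 when vehicle replicate 1 (0.0519) or 2 (0.0505) was. Neither passed with no filter on low values (0.0537 and 0.0771). Dusp14, a small phosphatase that dampens T cell receptor signalling, was listed at 17.84, 19.19 and 21.10 FPKM with vehicle and 15.88, 15.42 and 16.69 FPKM with LPC (log2 change -0.26), without passing (adjusted p = 0.0805). It passed once GC and length trends were taken out (-0.27). The log2 changes of the JNK and p38 phosphatase gene Dusp16 (-0.22), of Dusp22 (-0.21), of Dusp7, the closest relative of Dusp6 (-0.11), of Styx (-0.08), Dusp19 (0.01), Dusp12 (0.12) and Spred3 (0.14) did not pass. Another 11 family genes stayed under the filter, with at most 1.03 FPKM in any library. Among them Spry4 was listed at 0.95, 0.96 and 0.89 FPKM with vehicle and 0.69, 0.72 and 0.71 with LPC. Dusp8 was at 0.87, 0.66 and 0.58 with vehicle and at 0.47, 0.52 and 0.41 with LPC. Dusp3 and Dusp23 went the other way. Dusp3 was at 0.47, 0.51 and 0.45 with vehicle and at 0.72, 0.58 and 0.85 with LPC. Dusp23 was at 0.77, 0.63 and 0.66 with vehicle and at 1.03, 0.96 and 0.79 with LPC. At these levels no test was made in the main fit. With no filter on low values all 21 further family genes were fitted, and 0 passed in either direction.

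Other brakes on the Ras to ERK route were examined next. Of 22 tested genes 1 rose and 3 fell, beside 5.82% and 7.91% of all tested genes. The median log2 change was -0.13. Rasa3, which encodes a GTPase-activating protein of Ras and Rap, was listed at 10.95, 11.82 and 12.13 FPKM with vehicle and 7.34, 7.73 and 5.97 FPKM with LPC (log2 change -0.66, SE 0.11, limma adjusted p = 0.00203). All LPC libraries were under the vehicle libraries, and Rasa3 passed in all 13 alternatives. Dgka, whose kinase removes the diacylglycerol that activates RasGRP1, had a log2 change of -0.39 (adjusted p = 0.0121), and Ppp2r2a, a subunit gene of protein phosphatase 2A, of -0.32 (0.0339). Rgs2, which encodes a regulator of G protein signalling, rose by 0.40 (0.0157). Dgka lost its call with vehicle replicate 1 (adjusted p = 0.0541) or 2 (0.063) left out, and Rgs2 with vehicle replicate 1 (0.0689) or 3 (0.0553) left out. For Ppp2r2a the single fit of this kind that kept the call was the one lacking LPC replicate 2, and the other 5 gave adjusted p from 0.0522 to 0.181. Median centring ended its call as well (0.051).

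Within the cascade that these genes restrain, 1 of 25 tested Ras to ERK genes rose and 3 fell, beside 5.82% and 7.91% of all tested genes. The list had a median log2 change of -0.18. Rasgrp1, the main Ras activator downstream of the T cell receptor, was listed at 28.87, 31.07 and 30.20 FPKM with vehicle and 22.87, 23.93 and 17.70 FPKM with LPC (log2 change -0.48, SE 0.11, limma adjusted p = 0.0132). It fell in every fit without 1 library. Hras, which encodes a Ras protein, rose from 25.8 ± 0.631 to 36.3 ± 6.59 FPKM (0.46, adjusted p = 0.0197), whereas the Ras activator gene Sos1 had a log2 change of -0.43 (0.0355). Hras lost its call with vehicle replicate 1 (adjusted p = 0.0741) or LPC replicate 1 (0.0809) left out. Sos1 lost it with vehicle replicate 1 (0.124) or 2 (0.134) or LPC replicate 1 (0.111) or 3 (0.0815) left out.

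Of 24 tested JNK and p38 cascade genes 3 fell and 0 rose, beside 7.91% and 5.82% of all tested genes, with a median log2 change of -0.13. Gadd45b and Gadd45g encode small inducible activators of the kinase upstream of p38 and JNK and were abundant. Gadd45b was listed at 146.52, 130.41 and 115.11 FPKM with vehicle and 87.18, 99.01 and 99.00 FPKM with LPC (log2 change -0.45, limma adjusted p = 0.0128). Gadd45g was at 155.73, 152.50 and 167.19 and at 133.16, 110.73 and 119.64 FPKM (-0.39, adjusted p = 0.0172). The groups of both genes were separate. The JNK scaffold gene Mapk8ip3 had a log2 change of -0.35 (0.036). Gadd45b lost its call with vehicle replicate 1 (adjusted p = 0.0862) or LPC replicate 1 (0.0589) left out, and Gadd45g with vehicle replicate 1 (0.0689) or 3 (0.0655) left out or with median centring (0.0585). Mapk8ip3 kept its call with LPC replicate 2 left out and lost it in the other 5 fits of this kind (0.0554 to 0.133).

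Genes of the last list, ERK-responsive and immediate early genes, were called in both directions, mostly lower. Of 29 tested ERK-responsive and immediate early genes 2 rose and 10 fell, beside 5.82% and 7.91% of all tested genes, with a median log2 change of -0.15. Egr3, an early response factor gene, was listed at 33.28, 32.88 and 31.38 FPKM with vehicle and 18.43, 20.97 and 15.72 FPKM with LPC (log2 change -0.80, SE 0.10, limma adjusted p = 6.7e-04). Nr4a1 had a log2 change of -0.68 (0.00171), and Elk3, an ETS-family transcription factor gene that works with serum response factor, fell from 37.0 ± 2.09 to 24.2 ± 2.11 FPKM (-0.59, 0.00195). Phlda1 rose from 1.55 ± 0.174 to 3.51 ± 0.444 FPKM (0.82, SE 0.11, adjusted p = 6.7e-04). These 4 genes passed in each alternative in which they were tested. The second rise was Etv5, an ETS-family gene named outside the rule used for other genes because the count of rises was small. The further falls in this list were not named. Etv5 had a log2 change of 0.33 (limma adjusted p = 0.0494). It lost its call when any vehicle library or LPC replicate 1 was dropped, which left Phlda1 as the 1 rise. Rises numbered 1 with no filter on low values and 0 with a mean FPKM of 5 or more.

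**Figure D3:**
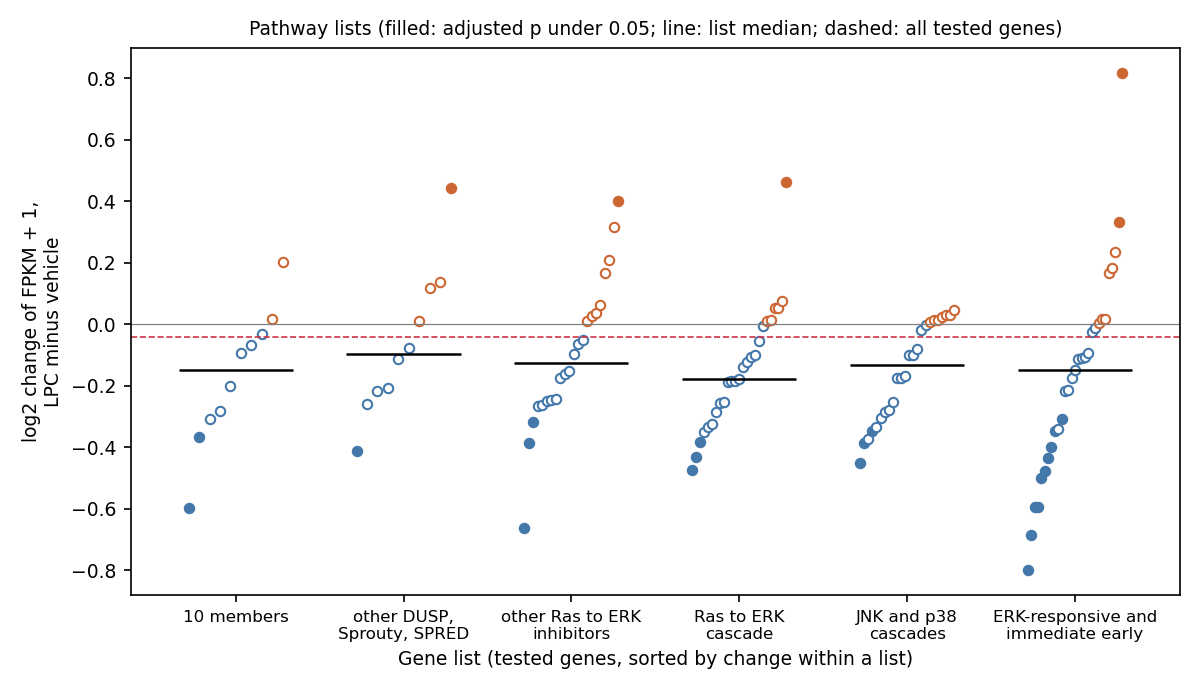
Log2 change of each tested gene of the 10 members and of 5 pathway lists, sorted within a list, with filled points past the adjusted threshold, a line at the list median and a dashed line at the median of all tested genes (-0.04). List medians lie between -0.18 and -0.10, and each list holds genes on both sides of 0.

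The number of calls in a list depended on single libraries. Falls of the ERK-responsive list numbered 10 in the full comparison, 4 with vehicle replicate 1 left out, 5 with vehicle replicate 2 and 6 with LPC replicate 1 or 3 left out. Falls of the Ras to ERK cascade numbered 7 without LPC replicate 2 and 1 without vehicle replicate 1 or 2, and those of the JNK and p38 list 9 without LPC replicate 2, 0 without vehicle replicate 1 and 1 when vehicle replicate 3 or LPC replicate 1 was dropped. Falls among the other brakes numbered 1 without vehicle replicate 1 or 2. Over all tested genes, calls numbered 1392 with all libraries, 513, 566 and 951 with vehicle replicate 1, 2 and 3 dropped, and 702, 2026 and 1148 with LPC replicate 1, 2 and 3 dropped. With no filter on low values, Rgs2, Ppp2r2a, Rasgrp1, Hras, Sos1, Gadd45b, Gadd45g and Mapk8ip3 missed the threshold.

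The genes whose pattern over the 6 libraries was most like that of Spry1 were Ddb2 (Pearson r = 0.996), Herpud2 (0.996) and Cd226 (0.995). These values describe 6 libraries in 2 groups and mostly reflect the difference between the groups. Cd226, which encodes a costimulatory receptor of T cells, was listed at 10.11, 11.02 and 10.63 FPKM with vehicle and 6.02, 6.97 and 5.87 FPKM with LPC (log2 change -0.67). Ddb2, a DNA repair gene, had a log2 change of -0.47 and Herpud2 of -0.41.

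**Figure D4:**
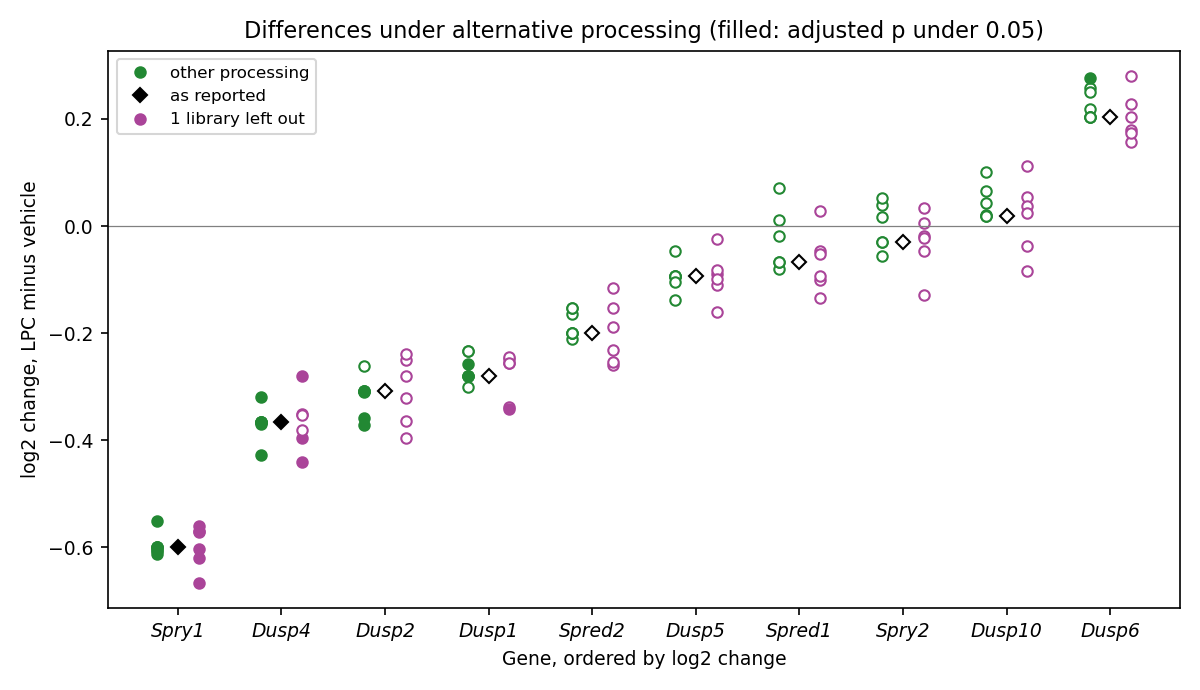
Log2 change, LPC minus vehicle, of each member as reported (diamond), under other processing (green) and with 1 library left out (purple), with filled points past the adjusted threshold. Spry1 lies between -0.67 and -0.55 in all 13 alternatives, Dusp4 between -0.44 and -0.28 with 9 of 13 past the threshold, and Dusp6 between 0.16 and 0.28, while Spry2, Spred1 and Dusp10 have points on both sides of 0.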

How the data were processed

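Total RNA of 6 libraries was sequenced on a BGISEQ-500, Bowtie2 placed the reads on GRCm38, and RSEM, which splits shared reads between genes by estimate, gave expression, per the labels' protocols. Versions and strand setting: not given in the sources used here. Deposited by the authors were FPKM values rounded to 2 decimals for 18046 genes, with no read totals, so no count test was used. Gene identifiers were matched to RefSeq genes of GRCm38.p6 (99.3%), which restored 24 symbols that had become dates.

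Libraries were grouped by the agent in the labels. The 10138 genes that reached 1 FPKM in at least 3 libraries were fitted with limma 3.58.1 (R 4.3.3, with a mean-variance trend and no covariate) on log2(FPKM + 1), with Benjamini-Hochberg adjustment over all of them. Log2 changes are LPC minus vehicle, on a scale that shrinks differences of low genes, and FPKM is relative to each library's total. The fit was tested on artificial data with known answers. Members, lists and the naming rule were chosen with earlier results of these data known. All members, all tested family genes and up to 4 called genes with the largest changes per further list were named, with 3 genes most correlated with Spry1. Etv5 was named in addition, outside this rule. A result for 1 gene that this rule names is not reported here. Markers were taken from lists of 5 cell types. Transcript length and GC share came from GENCODE vM21. Depth was estimated as the read number at which low FPKM of genes with 1 transcript lay nearest to whole reads. The alternatives were another pseudocount, other filters on low values, quantile normalization, median centring, a replicate block, removal of GC and length trends and leaving out each library.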

Additional observations from a re-analysis of the deposited data

How the results depend on the processing

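Spry1 kept its direction and its side of the threshold in all 13 alternatives (pseudocount of 0.1, no filter, mean FPKM of 5 or more, quantile normalization, median centring, replicate block, removal of GC and length trends, and leaving out each library). All were planned. The cause of the changes below was not tested.

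Members called lower numbered 2, and 1 with no filter, 3 with quantile normalization, 4 with the replicate block and 4 after GC and length removal, when 1 was also called higher (0 otherwise); without 1 library they numbered 1 to 3. All genes called numbered 590 higher and 802 lower. They were 949 higher after GC and length removal, 236 and 228 with no filter, 1180 and 1661 with the replicate block, and 225 to 809 and 288 to 1217 without 1 library; 546 were lower with a mean FPKM of 5 or more. The share of calls that were higher was 42.4%, 53.1% with median centring. In the order higher then lower, the further family genes (1 and 1) gave 0 and 0 with no filter, 2 lower with the block and 2 lower after GC and length removal, and 0 to 1 in both directions without 1 library. Other inhibitors (1 and 3) gave 0 with no filter for rises, 2 and 7 with the block, 0 to 2 and 1 to 4 without 1 library. The Ras to ERK cascade (1 and 3) gave 0 and 0 with no filter, 9 lower with the block, 0 to 1 and 1 to 7 without 1 library. JNK and p38 genes (0 and 3) gave 0 lower with no filter, 2 with median centring, 9 with the block and 0 to 9 without 1 library. ERK-responsive genes (2 and 10) gave 0 higher with a mean FPKM of 5 or more, 1 and 3 with no filter, 6 lower with median centring, 3 higher with the block, 1 to 2 and 4 to 10 without 1 library.

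Members and further family genes near 0 changed sign. Spry2 was 0.0388 with quantile normalization, 0.0176 with median centring, 0.0523 after GC and length removal, and -0.128 to 0.0329 without 1 library. Spred1 was 0.0113 with quantile normalization, 0.0708 after GC and length removal and -0.134 to 0.0274 without 1 library. Dusp10 ranged from -0.0841 to 0.113 and Dusp19 from -0.0721 to 0.0744 without 1 library, and Styx was 0.0403 after GC and length removal.

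Whether the replicate numbers pair the libraries is unsettled: deviations from the group means correlated at 0.02, 0.56 and 0.41 between same-numbered libraries, so not all pairs exceeded 0.1, and at -0.09 to 0.06 or, for replicates 2 and 3 crossed, -0.45 and -0.50. Each LPC library correlated best with its own number, but vehicle replicate 1 did so with LPC replicate 3. The labels state no pairing. The replicate block raised the calls from 1392 to 2841 and added Dusp1, Dusp2, Dusp14 and the cell type marker Cd4 to those called lower.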
